A study of Mus musculus with 19 samples.

Results

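The 10 genes described here, Arntl, Clock, Npas2, Per1, Per2, Per3, Nr1d1, Nr1d2, Dbp and Tef, are core and output genes of the circadian clock. They were chosen by name, as the rows of the read-count table whose gene ID, with its version removed, belongs to one of these symbols. All 10 were found among the 55487 genes of the table, and all 10 were among the 16909 genes kept by a filter on low counts. RNA was sequenced from 19 oral squamous cell carcinomas that arose in mice of the C57BL/6J strain, which had been given the carcinogen 4-nitroquinoline 1-oxide (4NQO) at 100 µg/ml in their water for 10 weeks, starting at 6 weeks of age. Every mouse, those on vehicle included, had received 4NQO. There were 4 libraries from mice on regorafenib, an oral inhibitor of several kinases (5 mg/kg/day), 3 from mice on anti-PD1, an antibody against an inhibitory receptor of T cells, 5 from mice on anti-PD1 with regorafenib (the combination), 3 from mice on an anti-CD40 agonist, an antibody that activates antigen-presenting cells, and 4 from mice on vehicle. No doses are given for the antibodies or for the combination, and the anti-CD40 agonist is named in the sample titles and treatment labels but not in the treatment protocol. The hour of day at which tumours were collected is not given in the sources used here. Nothing in the labels ties each library to an animal of its own; p-values here reflect how far these libraries spread, and part of that spread may be technical.

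The circadian clock is a loop of transcription that turns about once a day in nearly every cell. ARNTL (also called BMAL1) pairs with CLOCK or its relative NPAS2, and the pair binds E-box sequences and switches on the Per genes, Nr1d1 and Nr1d2, Dbp and Tef. PER proteins, together with cryptochromes, block the pair, while NR1D1 and NR1D2 (REV-ERB alpha and beta) repress Arntl through a different element, the RRE. DBP and TEF are PAR bZIP factors that bind D-box sequences and carry the rhythm on to other genes. In mouse tissues Arntl and Npas2 peak at about the opposite time of day to Dbp and Nr1d1, so the ratio between these 2 arms is often read as a sign of clock phase. In tumours the same genes also differ between cell types, and in bulk samples fewer cells of a type and less RNA per cell cannot be told apart.

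Library totals ran from 16776177 to 24969492 counts, and the 10 genes were read with between 50 (Dbp) and 3729 (Clock) counts in a library. Levels are in CPM (counts scaled to a common library total) after TMM normalization. All 12 oral keratinocyte markers and all 15 skeletal muscle markers were above 0 in every group, so the libraries hold RNA of both tissues. The summed keratinocyte markers ran from 21700 to 27000 CPM with regorafenib, 15600 to 18600 with anti-PD1, 15400 to 23000 with the combination, 13800 to 21000 with anti-CD40 and 13000 to 18000 with vehicle. The summed muscle markers ran from 24600 to 31600 CPM with regorafenib, 36600 to 43500 with anti-PD1, 33700 to 45900 with the combination, 33200 to 50700 with anti-CD40 and 36800 to 42900 with vehicle. On both sums the regorafenib libraries lay apart from the vehicle libraries. Salivary gland markers summed to between 38.2 and 19300 CPM over the 19 libraries, and 1 of the 12 was at 0 throughout the anti-PD1 group and 1 throughout the vehicle group.

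Promoters of 9 of the 10 genes were found in a RefSeq table for build GRCm38.p6, as 14 windows of 300 bases that run from 250 bases before to 50 bases after a start of transcription; Per2 was not in it. They were searched on both strands for the E-box CACGTG, for the D-box TTATGTAA or TTACGTAA, and for the RRE core TAGGTCA, motifs that do not overlap one another. An E-box stood in 3 of the 14 windows, a D-box in 1 and an RRE core in 1, against 7.15%, 1.06% and 2.61% of all 32851 promoters of the table. The windows printed here, with the motif in capitals, are those of Tef, the gene with the clearest difference between groups, of Per3, which holds the D-box at 2 places, and the second of Arntl, which holds the RRE core. Tef promoter 1 lies at chr15:81802423-81802722 and Tef promoter 2 at chr15:81811164-81811463, both on the plus strand, with the E-box starting at position -127 and -138 from the start of transcription. The Per3 promoter lies at chr4:151044616-151044915 on the minus strand, with D-boxes starting at positions -205 and -158. Arntl promoter 2 lies at chr7:113207261-113207560 on the plus strand, with the RRE core starting at position 31. The remaining E-box was in the first of the Per1 windows, at position -166. A match is a run of letters and does not show that a factor binds there.
Tef promoter 1: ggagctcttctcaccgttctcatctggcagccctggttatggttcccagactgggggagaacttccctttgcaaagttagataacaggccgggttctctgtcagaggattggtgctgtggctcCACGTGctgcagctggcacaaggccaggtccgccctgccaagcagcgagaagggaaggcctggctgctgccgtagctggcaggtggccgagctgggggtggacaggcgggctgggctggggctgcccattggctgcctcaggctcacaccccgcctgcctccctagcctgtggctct
Tef promoter 2: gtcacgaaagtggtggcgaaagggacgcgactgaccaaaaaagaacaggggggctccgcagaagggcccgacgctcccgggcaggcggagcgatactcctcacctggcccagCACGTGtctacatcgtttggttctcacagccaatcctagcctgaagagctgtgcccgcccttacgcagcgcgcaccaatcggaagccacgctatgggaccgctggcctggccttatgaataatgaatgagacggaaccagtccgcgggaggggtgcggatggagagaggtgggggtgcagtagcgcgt
Per3 promoter: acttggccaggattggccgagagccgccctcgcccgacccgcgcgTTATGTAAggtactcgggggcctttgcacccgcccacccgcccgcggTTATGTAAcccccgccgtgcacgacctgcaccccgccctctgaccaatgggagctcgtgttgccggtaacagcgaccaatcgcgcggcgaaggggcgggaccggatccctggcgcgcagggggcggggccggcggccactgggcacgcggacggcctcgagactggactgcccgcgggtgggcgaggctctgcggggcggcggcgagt
Arntl promoter 2: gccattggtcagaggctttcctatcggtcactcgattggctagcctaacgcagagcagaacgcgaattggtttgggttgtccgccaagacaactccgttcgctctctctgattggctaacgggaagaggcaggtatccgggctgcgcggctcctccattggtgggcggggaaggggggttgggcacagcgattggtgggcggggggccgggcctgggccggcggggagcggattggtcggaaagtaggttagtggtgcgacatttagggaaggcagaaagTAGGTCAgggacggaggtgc

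Per kilobase of exon, the order of the 10 levels over the 19 libraries began with Nr1d1 at 18.3 CPM per kb ± 5.42 (SD, n = 19). Tef followed at 11.2 ± 1.82, Clock at 11 ± 0.672, Nr1d2 at 9.28 ± 1.79, Per1 at 7.55 ± 1.33 and Arntl at 6.08 ± 0.761 CPM per kb. Npas2 stood at 2.99 ± 0.412, Per2 at 2.71 ± 0.785, Dbp at 1.4 ± 0.769 and Per3 at 1.33 ± 0.241 CPM per kb. Neighbours closer than the larger of their SDs were Tef and Clock, Clock and Nr1d2, Nr1d2 and Per1, Npas2 and Per2, and Dbp and Per3. Exons of Nr1d1 overlap those of Thra on the opposite strand over 263 bases, those of Dbp overlap Sphk2 over 539, those of Tef overlap Gm17597 over 193 and those of Arntl overlap Gm45355 over 33. The kit marks strand, but the strand setting of the counting is not given in the sources used here, so reads from these overlaps could belong to either gene.

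**Figure D1:**
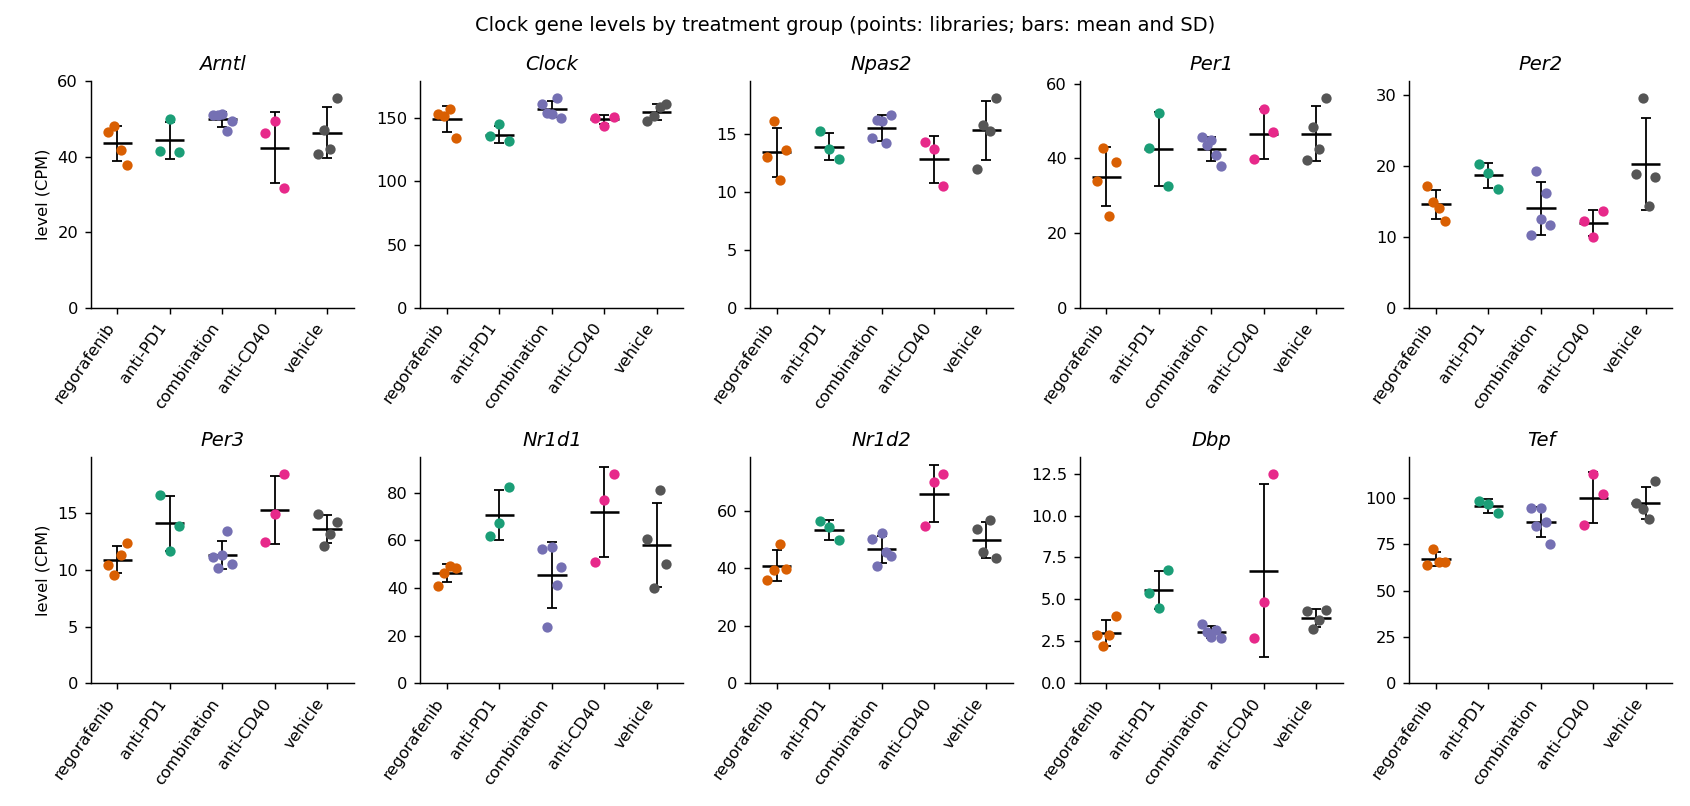
Level of each of the 10 clock genes (vertical axis, CPM, starting at 0) in the 19 libraries, by treatment group (horizontal axis); points are libraries, and bars give the group mean and SD. The 4 regorafenib libraries lie below every other library for Tef, between 63.9 and 72.4 CPM, and 1 anti-CD40 library stands at 12.5 CPM for Dbp.

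Regorafenib alone was set against vehicle to see whether the kinase inhibitor changed clock gene levels. Tef was lower in all 4 regorafenib libraries than in any vehicle library, and it was the 1 gene of the 10 that changed by the test over all genes. Each of the other 9 was estimated lower as well, by smaller amounts or with a wider spread, and none of them passed. Tef (ENSMUSG00000022389.15, GRCm38 chromosome 15 from 81802421 to 81826863, plus strand), whose 2 promoter windows each hold an E-box, stood at 63.9, 72.4, 65.3 and 65.4 CPM with regorafenib, against 97.1, 94.1, 88.5 and 109 CPM with vehicle. The groups did not overlap, and the highest regorafenib library was regorafenib 2. The log2 change was -0.54 ± 0.09 (SE; 95% interval -0.73 to -0.36; edgeR adjusted p = 0.00348), a level that fell by 31.3%. The direction and the call were kept without any 1 library, with log2 changes between -0.59 and -0.48.

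Of the 16909 genes, 6.32% passed in this comparison, so 1 of 10 clock genes is close to the share of all genes. DESeq2 and limma with sample weights each called 1 of the 10 as well. At an unadjusted p under 0.05 there were 5 of the 10 genes, against 24.5% of all genes. The median log2 change of the 10 was -0.32, against 0 over all genes tested. In the same comparison 7 of the 12 keratinocyte markers rose (median log2 change 0.47) and 6 of the 15 muscle markers fell (median -0.43). With the mean log2 CPM of the keratinocyte markers of each library as a covariate, the Tef change was -0.33 and did not pass (adjusted p = 0.486). No gene of the table passed in this comparison with that covariate. With the mean log2 CPM of the muscle markers as the covariate, the Tef change was -0.47 (adjusted p = 0.0409).

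The 3 Per genes, the repressors of the loop, were each estimated lower with regorafenib, by a log2 change of -0.41 ± 0.16 for Per1, -0.48 ± 0.21 for Per2 and -0.32 ± 0.13 for Per3. Their unadjusted p-values were 0.0237, 0.0315 and 0.0238, and their adjusted p-values in edgeR were 0.137, 0.159 and 0.138. Without vehicle 2, the highest library for Per2, the Per2 change was -0.24, and with the keratinocyte covariate the Per1 change was -0.04. Per1 (ENSMUSG00000020893.17, chromosome 11 from 69095217 to 69109960, plus strand) ran from 24.6 to 42.9 CPM with regorafenib, against 39.5 to 56.2 with vehicle. Per3 (ENSMUSG00000028957.12, chromosome 4 from 151003652 to 151044665, minus strand) ran from 9.57 to 12.4 CPM, against 12.1 to 14.9. For both genes the groups overlapped. Nr1d2, a repressor of Arntl, averaged 40.9 CPM ± 5.36 with regorafenib, against 49.8 ± 6.28 with vehicle (SD, n = 4 each), a log2 change of -0.29 ± 0.11 (edgeR adjusted p = 0.116).

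The 3 activators had the smallest estimates. Arntl had a log2 change of -0.09 ± 0.12, Clock of -0.06 ± 0.06 and Npas2 of -0.18 ± 0.13, with 95% intervals of -0.35 to 0.17, -0.18 to 0.07 and -0.46 to 0.09 (edgeR adjusted p = 0.687, 0.586 and 0.392). Nr1d1 and Dbp had the widest errors, with log2 changes of -0.33 ± 0.26 and -0.39 ± 0.33 (adjusted p = 0.458 and 0.49).

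**Figure D2:**
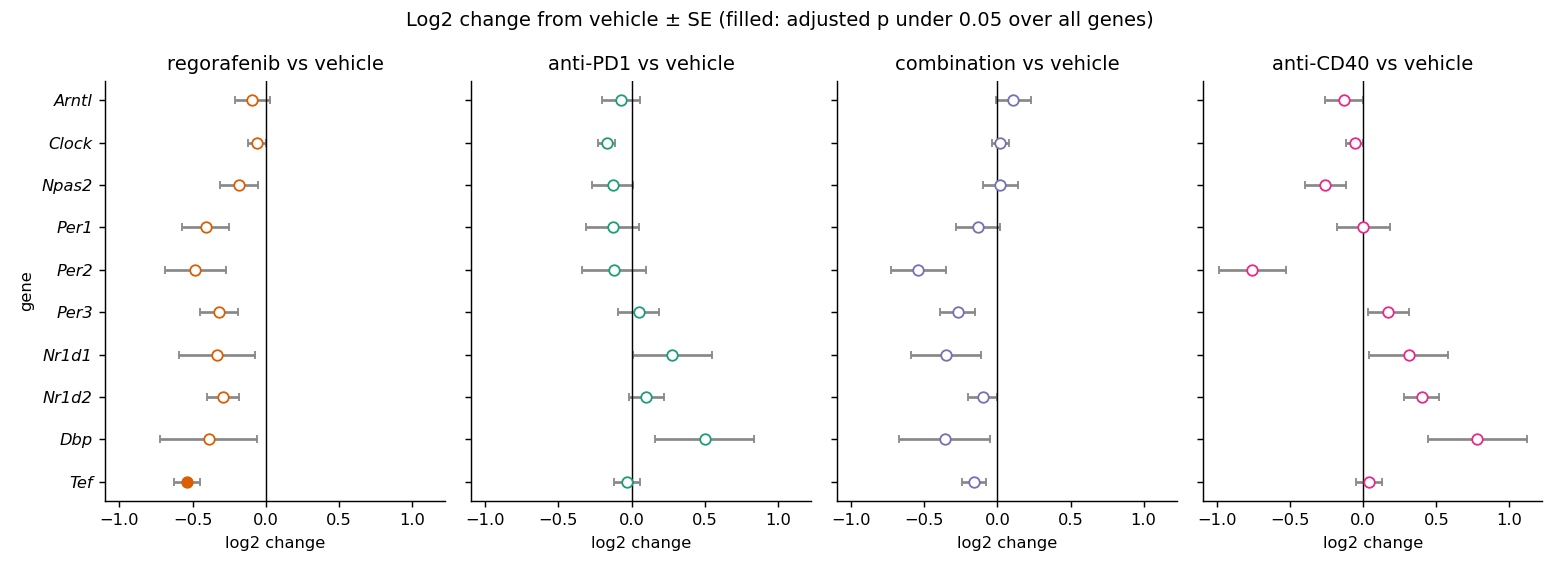
Log2 change from vehicle (horizontal axis) of the 10 clock genes (vertical axis) in each of the 4 treatments; points are edgeR estimates, bars are 1 SE on either side, and filled points passed an adjusted p of 0.05 over all genes. The 1 filled point is Tef with regorafenib, at -0.54; all 10 points of that panel lie left of 0, and the 4 panels share the vehicle libraries.

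Against vehicle, anti-PD1 alone gave no call among the 10 genes in edgeR, DESeq2 or limma, and in edgeR 0% of all genes passed. At an unadjusted p under 0.05 there was 1 of the 10, Clock, against 9.32% of all genes. Clock (ENSMUSG00000029238.11, chromosome 5 from 76209868 to 76304792, minus strand), the partner of ARNTL, stood at 136, 145 and 132 CPM with anti-PD1, against 148, 152, 159 and 161 CPM with vehicle. The groups did not overlap, and the log2 change was -0.17 ± 0.06 (edgeR adjusted p = 0.377). Dbp was higher in all 3 anti-PD1 libraries than in any vehicle library, at 5.40, 4.48 and 6.73 CPM against 4.33, 3.22, 3.78 and 4.36 CPM, a log2 change of 0.50 ± 0.34 (unadjusted p = 0.161, adjusted p = 0.681). How many of all genes lay without overlap between these groups was not counted. Tef differed by -0.03 ± 0.09, with a 95% interval of -0.22 to 0.17. The remaining 7 genes had log2 changes between -0.13 and 0.28, and the median of the 10 was -0.05, against 0 over all genes.

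With the combination, edgeR called 0.0237% of all genes against vehicle and none of the 10 clock genes; DESeq2 and limma also called none. At an unadjusted p under 0.05 there were 2 of the 10, against 10.8% of all genes. They were Per2, with a log2 change of -0.54 ± 0.19 (edgeR adjusted p = 0.332), and Per3, with -0.27 ± 0.12 (adjusted p = 0.437). Per2 (ENSMUSG00000055866.9, chromosome 1 from 91415982 to 91459324, minus strand) stood at 10.3, 19.3, 12.5, 16.2 and 11.7 CPM with the combination, against 18.8, 29.6, 14.4 and 18.5 CPM with vehicle. The highest libraries were combination 2 and vehicle 2, and the groups overlapped. Without vehicle 2 the log2 change of Per2 was -0.30. Tef averaged 87.0 CPM ± 8.11 (SD, n = 5), against 97.2 ± 8.72 with vehicle (n = 4), a log2 change of -0.16 ± 0.08 (95% interval -0.33 to 0.01; adjusted p = 0.501).

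With the anti-CD40 agonist no gene of the table passed against vehicle in edgeR, 0% of all genes, and none of the 10 was called in DESeq2 or limma. At an unadjusted p under 0.05 there were 3 of the 10, Per2, Nr1d2 and Dbp, against 6.06% of all genes. Per2 stood at 12.2, 9.99 and 13.7 CPM with anti-CD40, below all 4 vehicle libraries, with a log2 change of -0.76 ± 0.23 (edgeR adjusted p = 0.814). Without vehicle 2, the highest library for Per2, that change was -0.53. Nr1d2 (ENSMUSG00000021775.11, chromosome 14 from 18204054 to 18239127, minus strand) was estimated higher, at 54.6, 70.1 and 72.9 CPM with anti-CD40, against 53.5, 45.5, 56.7 and 43.6 CPM with vehicle. Its log2 change was 0.40 ± 0.12 (adjusted p = 0.799), and 2 of the 3 anti-CD40 libraries lay above every vehicle library. The Dbp change of 0.78 ± 0.34 (adjusted p = 0.817) rested on 1 library: without anti-CD40 3 it was -0.05.

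Adding anti-PD1 to regorafenib was tested by setting the combination against regorafenib alone. Tef rose: the 5 combination libraries stood at 94.5, 84.6, 94.3, 86.7 and 74.9 CPM, all above the 4 regorafenib libraries at 63.9, 72.4, 65.3 and 65.4 CPM. The nearest libraries were combination 5 and regorafenib 2. The log2 change was 0.38 ± 0.08 (95% interval 0.21 to 0.56; edgeR adjusted p = 0.0104), and it shares the regorafenib libraries with the comparison against vehicle. Tef was the 1 gene of the 10 called, also in DESeq2 and limma, while 10.5% of all genes passed, and it was also the 1 gene of the 10 at an unadjusted p under 0.05, against 28.1% of all genes. In this comparison 6 of the 15 muscle markers rose and 4 of the 12 keratinocyte markers fell. The Tef change was 0.30 with the muscle covariate (adjusted p = 0.225) and 0.24 with the keratinocyte covariate (adjusted p = 0.353), and neither passed.

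Adding regorafenib to anti-PD1 was tested by setting the combination against anti-PD1 alone, where 0.00591% of all genes passed in edgeR and none of the 10 clock genes did; DESeq2 and limma called none of the 10. At an unadjusted p under 0.05 there were 4 of the 10, against 9.94% of all genes. Dbp stood at 3.55, 3.07, 2.79, 3.18 and 2.69 CPM with the combination, below the 5.40, 4.48 and 6.73 CPM of anti-PD1, a log2 change of -0.86 ± 0.33 (adjusted p = 0.356). Nr1d1 also lay below without overlap, with a log2 change of -0.63 ± 0.26 (adjusted p = 0.411), and Per3 had -0.31 ± 0.13 (adjusted p = 0.411). Clock lay above without overlap, with a log2 change of 0.19 ± 0.06 (adjusted p = 0.255). Estimates for Dbp, Nr1d1 and Per3 were thus below 0 and that for Clock above 0, and none passed over all genes. The share of all genes without overlap between these 2 groups was not taken.

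The interaction asked whether the change with regorafenib differed in the presence of anti-PD1. In edgeR 0.627% of all genes passed and none of the 10 did, with 2 of the 10 at an unadjusted p under 0.05, against 15.8% of all genes. These were Tef, with a log2 difference of 0.41 ± 0.12 (adjusted p = 0.118), and Clock, with 0.25 ± 0.08 (adjusted p = 0.151). DESeq2 called both (adjusted p = 0.0422 for Tef and 0.0413 for Clock), where it called 584 genes of the table and edgeR 106. Limma called none of the 10. Regorafenib was thus followed by a Tef change of -0.54 over vehicle and of -0.13 ± 0.09 over anti-PD1, and the difference between them did not pass in edgeR.

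Tested over the 5 groups at once, 2 of the 10 genes differed between groups, Tef (edgeR adjusted p = 0.0109) and Nr1d2 (adjusted p = 0.0242), while 4.49% of all genes passed. At an unadjusted p under 0.05 there were 5 of the 10, against 25.9% of all genes; the others were Per2, Per3 and Dbp. DESeq2 called 6 of the 10, adding Per2, Per3, Nr1d1 and Dbp, where it called 2481 genes of the table and edgeR 760. Limma called the same number of the 10 as edgeR. Nr1d2 had its lowest group mean with regorafenib, 40.9 CPM ± 5.36 (SD, n = 4). Its mean was 53.4 ± 3.41 with anti-PD1 (n = 3), 46.6 ± 4.63 with the combination (n = 5), 65.9 ± 9.83 with anti-CD40 (n = 3) and 49.8 ± 6.28 with vehicle (n = 4). Both calls were lost without regorafenib 4 (adjusted p = 0.0569 for Tef and 0.0704 for Nr1d2), and that of Nr1d2 also without regorafenib 1 (adjusted p = 0.062) and with the replicate number as a block (0.0515). With the muscle covariate the values were 0.0866 and 0.0931, and with the keratinocyte covariate 0.198 and 0.119. Calls over the whole table were lost in these settings too. From 760 genes they fell to 39 without regorafenib 4, 69 without regorafenib 1 and 210 with the block. With the muscle covariate 41 genes of the table passed, and with the keratinocyte covariate 16. Dbp, with an adjusted p of 0.0808, passed in DESeq2 (0.00918), with the muscle covariate (0.0395), without anti-CD40 1 (0.0212) and without anti-CD40 3 (0.0344).

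Libraries of 1 group differed from each other in clock gene levels, and to an unequal degree from gene to gene. The SD of log2 CPM around the group means was 0.07 for Clock, 0.13 for Tef, 0.17 for Nr1d2 and 0.19 for each of Arntl, Npas2 and Per3. It was 0.25 for Per1, 0.31 for Per2, 0.39 for Nr1d1 and 0.47 for Dbp. The median SD was 0.19 over the 10 genes and 0.18 over all tested genes. Set against genes of like level, Nr1d1 lay at the 98.4th percentile of SD, Per1 at the 94.0th, Per2 at the 93.5th and Dbp at the 91.2nd, whereas Clock lay at the 15.5th. The spread of Dbp was uneven over the groups. Its SD in CPM was 76.9% of the group mean with anti-CD40, and from 11.2% (combination) to 25.3% (regorafenib) in the other groups. No percentile was taken without single libraries. Treatment group held 78.7% of the sum of squares for Tef, 68.8% for Nr1d2 and 24.4% for Arntl, with a median of 47.6% over the 10 genes and 33.6% over all genes.

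**Figure D3:**
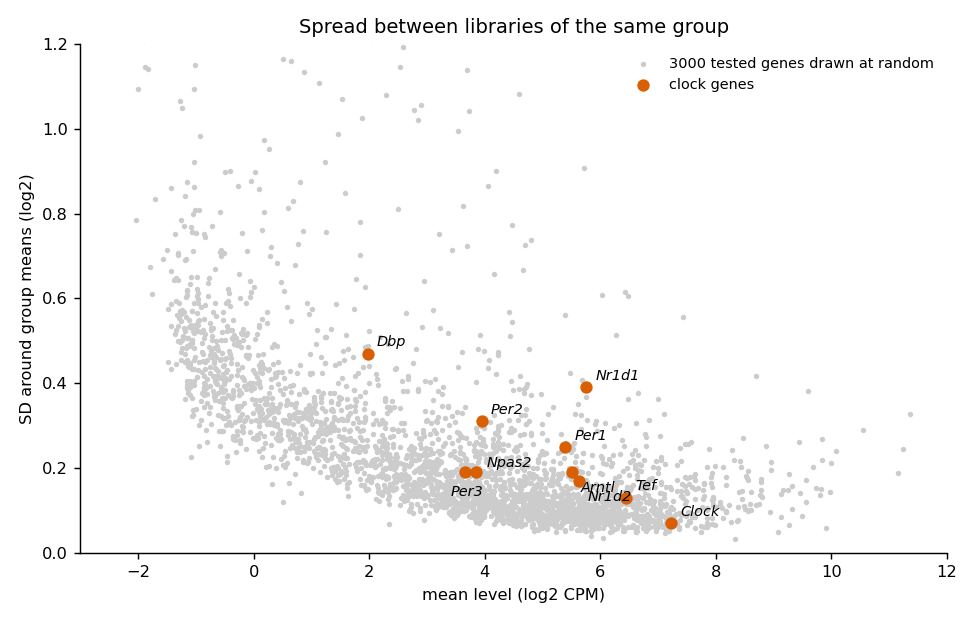
SD of log2 CPM around the group means (vertical axis, log2) against mean level (horizontal axis, log2 CPM) for the 10 clock genes, in orange, and for 3000 tested genes drawn at random, in grey; genes above 1.2 on the vertical axis are out of the frame. Nr1d1, Dbp, Per2 and Per1 lie in the upper part of the cloud at their level, and Clock, at 0.07, lies in the lower part.

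A single anti-CD40 library accounted for many of the extremes. Of the 10 genes, anti-CD40 3 was the highest of all 19 libraries for 4 (Per3, Nr1d1, Nr1d2 and Dbp) and the lowest for 2 (Arntl and Npas2). Dbp (ENSMUSG00000059824.12, chromosome 7 from 45705088 to 45710203, plus strand) stood at 12.5 CPM in anti-CD40 3, against 2.72 and 4.86 CPM in anti-CD40 1 and 2. Over all 19 libraries the highest Dbp level was 5.65 times the lowest, the widest ratio of the 10 genes. Arntl (ENSMUSG00000055116.8, chromosome 7 from 113207465 to 113314126, plus strand) stood at 31.6 CPM in anti-CD40 3, against 46.3 and 49.4 CPM in anti-CD40 1 and 2, and at 37.9 CPM or more in each of the other 18 libraries. The same library held 10.5 CPM of Npas2, 18.5 of Per3 and 72.9 of Nr1d2. Its muscle markers, at 33200 CPM, and its keratinocyte markers, at 21000 CPM, were the lowest and the highest of the anti-CD40 group; their part in these levels was not tested.

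Nr1d1 (ENSMUSG00000020889.11, chromosome 11 from 98767932 to 98775333, minus strand), the heme-binding repressor of Arntl, had its lowest value in combination 2, at 23.6 CPM, against 56.4, 57.3, 41.4 and 48.9 CPM in the other combination libraries. It stood at 40.9, 46.3, 49.4 and 48.4 CPM with regorafenib, at 62.0, 67.4 and 82.3 with anti-PD1, at 51.0, 76.7 and 88.0 with anti-CD40, and at 60.5, 40.2, 81.2 and 50 with vehicle. The 4 vehicle libraries thus spanned 40.2 to 81.2 CPM, a wider range than that of the 5 group means, 45.5 to 71.9 CPM. In combination 2 and in vehicle 2, where Nr1d1 was the lowest of its group, Per2 was the highest of its group, at 19.3 and 29.6 CPM. Without combination 2 the log2 change of Nr1d1 with the combination against vehicle was -0.18, in place of -0.35 ± 0.24.

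**Figure D4:**
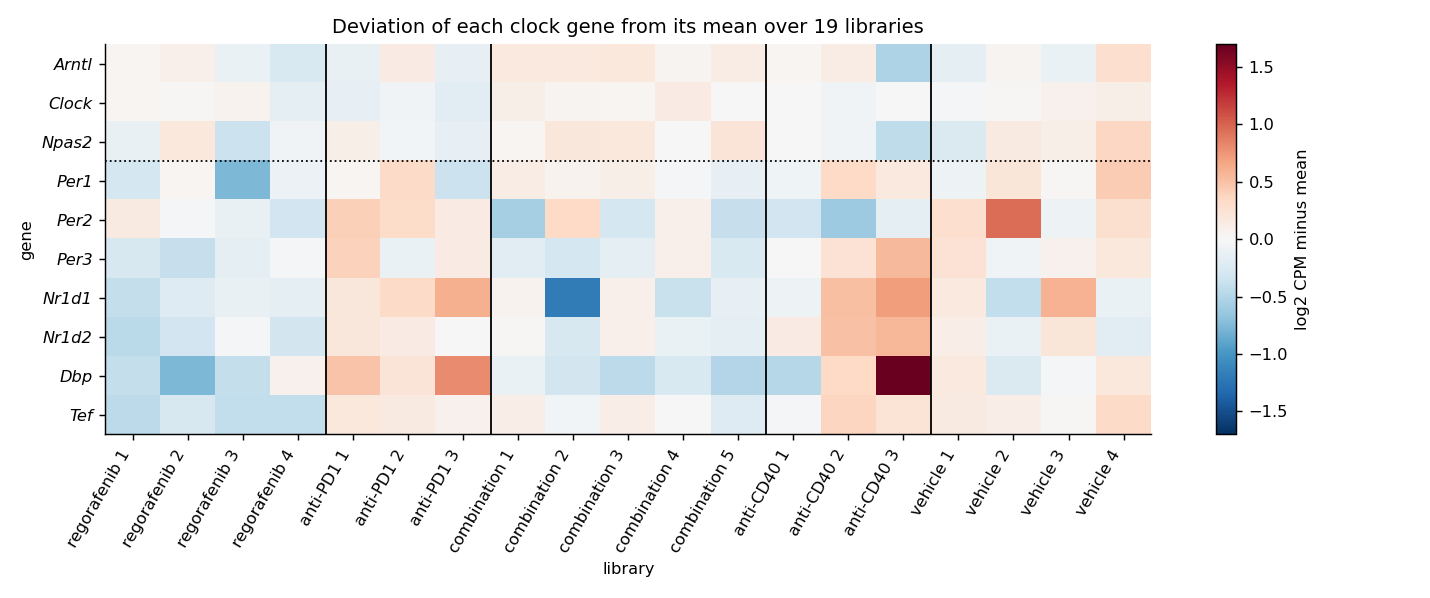
Deviation of log2 CPM from the mean over the 19 libraries (colour, red higher and blue lower) for the 10 clock genes (rows, with the 3 activators above the dotted line) in each library (columns, with lines between the groups). The darkest cells are Dbp in anti-CD40 3, at 1.68, and Nr1d1 in combination 2, at -1.19; the regorafenib columns are blue for Tef.

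Whether the 2 arms of the clock were opposed across libraries was tested through Arntl, as 9 relations over the 19 libraries with permutation p-values (two-sided) adjusted over the 9. Arntl tracked Npas2 (ENSMUSG00000026077.15, chromosome 1 from 39193731 to 39363236, plus strand), the gene of its alternative partner: Pearson's r was 0.74 (p = 0.00028, adjusted p = 0.00252) and Spearman's rho 0.72 (p = 0.00086, adjusted p = 0.00774). With group means removed r was 0.67 (p = 0.00172, adjusted p = 0.0057), and without the 2 libraries farthest from the median of Arntl, anti-CD40 3 and regorafenib 4, it was 0.65 (permutation p = 0.0044). Arntl ran against Dbp, with an r of -0.64 (permutation p = 0.00598, adjusted p = 0.0269), but rho was -0.34 (p = 0.157, adjusted p = 0.283) and r without the 2 farthest libraries was -0.30 (p = 0.239), so this relation rests on those libraries. Arntl also ran against Per3, with an r of -0.57 (permutation p = 0.0101, adjusted p = 0.0304) and a rho of -0.46 (p = 0.0462, adjusted p = 0.126). Without the 2 farthest libraries that r was -0.39 (permutation p = 0.118), so it rests on them too. With group means removed, r was -0.70 with Dbp and -0.66 with Per3 (permutation adjusted p = 0.0057 each). Both values still include anti-CD40 3 and regorafenib 4, and r with group means removed was not computed without them.

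The other 6 relations did not pass. Pearson's r with Arntl was -0.45 for Nr1d1 (permutation adjusted p = 0.126), -0.37 for Nr1d2 (0.177), 0.41 for Clock (0.141), 0.35 for Per1 (0.185), 0.14 for Tef (0.656) and 0.03 for Per2 (0.918). Their rho values were -0.28, -0.23, 0.45, 0.57, 0.16 and -0.05, with adjusted permutation p-values of 0.357, 0.441, 0.126, 0.0555, 0.564 and 0.841. Without anti-CD40 3 alone, a choice made after the data were seen, r was -0.31 for Dbp (permutation adjusted p = 0.307) and -0.35 for Per3 (adjusted p = 0.284), which no longer passed, and 0.60 for Per1 (adjusted p = 0.0344) and 0.56 for Clock (adjusted p = 0.0469), which now did; Npas2 kept an r of 0.62 (adjusted p = 0.0344). The relation with Per3 did not pass without combination 2 either (permutation adjusted p = 0.0559).

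**Figure D5:**
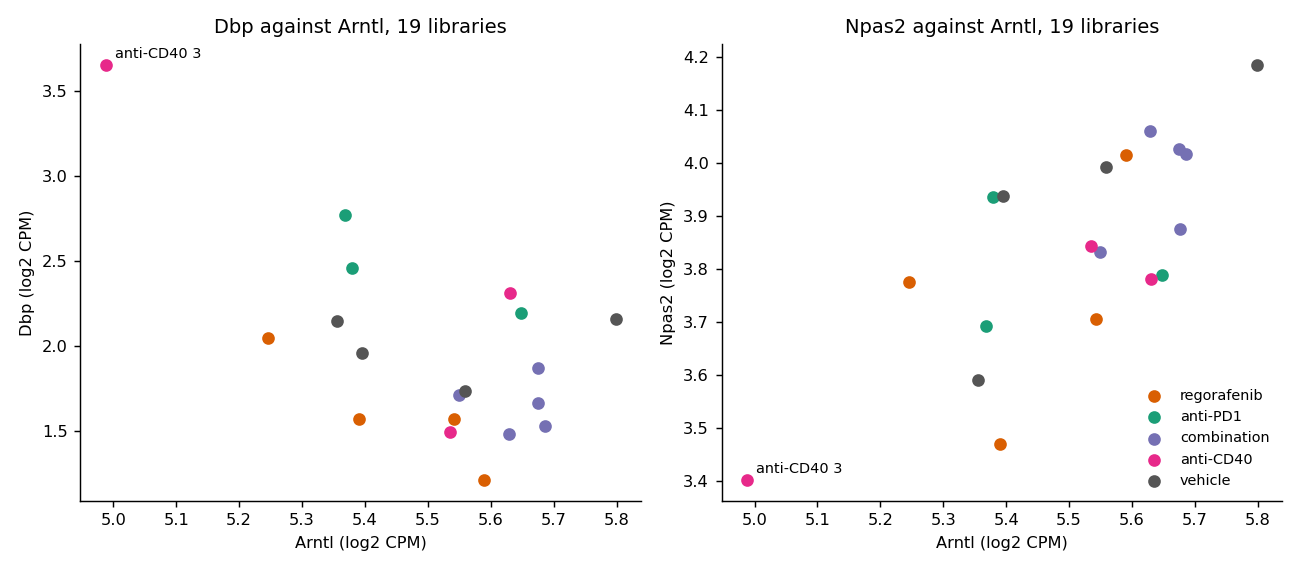
Dbp (left, log2 CPM) and Npas2 (right, log2 CPM) against Arntl (horizontal axes, log2 CPM) in the 19 libraries, coloured by group, with anti-CD40 3 marked. Npas2 climbs with Arntl across the whole range (r = 0.74), while the slope for Dbp (r = -0.64) leans on anti-CD40 3, which has the lowest Arntl and the highest Dbp.

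As a description of the balance between the activators and the rest, the mean log2 CPM of the 3 activators minus that of the other 7 genes was taken in each library, with no test, since the genes were chosen as a set. It averaged 1.04 ± 0.16 with regorafenib (SD, n = 4), 0.55 ± 0.09 with anti-PD1 (n = 3), 1.09 ± 0.11 with the combination (n = 5), 0.52 ± 0.50 with anti-CD40 (n = 3) and 0.77 ± 0.17 with vehicle (n = 4). The 9 libraries with regorafenib, alone or combined, ran from 0.86 to 1.22, and the 7 libraries on anti-PD1 alone or vehicle from 0.48 to 0.93, so the ranges met between regorafenib 4 at 0.86 and vehicle 4 at 0.93. The anti-CD40 libraries spanned almost the whole range, at 0.97, 0.60 and -0.01. Without anti-CD40 3 their mean was 0.79. The log2 level of Arntl minus that of Dbp averaged 3.84 ± 0.49 with regorafenib, 2.99 ± 0.43 with anti-PD1, 3.99 ± 0.17 with the combination, 2.90 ± 1.4 with anti-CD40 and 3.53 ± 0.27 with vehicle, from 1.33 in anti-CD40 3 to 4.38 in regorafenib 2. The other 7 genes did not all run against Arntl. Pearson's r was below 0 for Per3, Nr1d1, Nr1d2 and Dbp, but 0.35 for Per1, 0.14 for Tef and 0.03 for Per2. With regorafenib against vehicle the log2 changes of the 3 activators lay between -0.18 and -0.06, and those of the other 7 between -0.54 and -0.29. Whether these libraries differ in the hour of collection was not tested, since no hour is recorded.

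Of 18 further genes of the clock, 17 could be tested, all but Rorb. With regorafenib against vehicle 2 of the 17 fell and none rose, where 6.32% of all genes passed, with a median log2 change of -0.18, against 0 over all genes. Of the 17, 8 had an unadjusted p under 0.05 in edgeR, against 24.5% of all genes. Cry2, a cryptochrome that joins the PER proteins, stood at 25.2, 23.7, 24.3 and 24.8 CPM with regorafenib, against 34.3, 33.9, 31.1 and 39.0 CPM with vehicle. The groups did not overlap, and Cry2 fell by a log2 change of -0.50 ± 0.08 (edgeR adjusted p = 0.00483), close in size to the Tef change. Csnk1e, a kinase that marks PER proteins for decay, fell by a log2 change of -0.30 ± 0.08 (adjusted p = 0.0377), with means of 68.8 CPM ± 4.50 with regorafenib and 84.6 ± 6.33 with vehicle (SD, n = 4 each). With the keratinocyte covariate neither passed (adjusted p = 0.48 for Cry2 and 0.782 for Csnk1e), and with the muscle covariate Cry2 did (0.0411) and Csnk1e did not (0.174). Csnk1e was also lost with the replicate number as a block (0.0654) and without any 1 of regorafenib 1, 3 or 4 or vehicle 1 or 4 (adjusted p up to 0.137). None of the 17 passed with anti-PD1, the combination or anti-CD40 against vehicle, where the log2 changes of Cry2 were -0.16 ± 0.09, -0.28 ± 0.08 and -0.21 ± 0.09 (adjusted p = 0.608, 0.191 and 0.814). Those of Csnk1e, in the same order, were -0.17 ± 0.09, -0.26 ± 0.08 and -0.28 ± 0.09 (edgeR adjusted p = 0.578, 0.247 and 0.814). DESeq2 and limma also called none of the 17 in these 3 comparisons, and at an unadjusted p under 0.05 in edgeR there were 2 of them for anti-PD1, 3 for the combination and 4 for anti-CD40, against 9.32%, 10.8% and 6.06% of all genes. Set against regorafenib, the combination gave 0 calls of the 17 in edgeR, where 10.5% of all genes passed, and 3 each in DESeq2 and limma. There 5 of the 17 had an unadjusted p under 0.05 in edgeR, against 28.1% of all genes.

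Over the 5 groups Cry2 (adjusted p = 0.0242) and Bhlhe41, an E-box repressor (adjusted p = 0.0407), passed, where 4.49% of all genes did. Both calls were lost with the replicate number as a block (0.0539 and 0.0899), with the muscle covariate (0.102 and 0.131), with the keratinocyte covariate (0.335 and 0.207) and without any 1 regorafenib library. That of Bhlhe41 was lost as well without anti-PD1 2 or vehicle 1, 3 or 4. Bhlhe41 averaged 6.33 CPM ± 0.126 with regorafenib, 9.38 ± 1.21 with anti-PD1, 7.57 ± 1.38 with the combination, 10.1 ± 1.98 with anti-CD40 and 8.13 ± 0.310 with vehicle. Cry1, the other cryptochrome, averaged 25.8 CPM ± 4.14 with regorafenib, against 28.3 ± 8.12 with vehicle (edgeR adjusted p = 0.695). Hlf, the third PAR bZIP factor, averaged 12.4 CPM ± 2.54 with regorafenib, against 14.0 ± 3.20 with vehicle (edgeR adjusted p = 0.537). Nfil3, which competes with these factors at D-boxes, averaged 19.1 CPM ± 3.57 with regorafenib, against 18.4 ± 4.16 with vehicle (edgeR adjusted p = 0.902). Ciart, a repressor of the ARNTL and CLOCK pair, averaged 1.43 CPM ± 0.0907 with regorafenib, against 1.76 ± 0.327 with vehicle (edgeR adjusted p = 0.422). In anti-CD40 3, Nfil3 had its lowest level of the 19 libraries, at 8.90 CPM, and in combination 2 its highest, at 28.9 CPM; Ciart stood at 2.95 CPM in anti-CD40 3, against 1.2 and 1.8 CPM in anti-CD40 1 and 2.

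Of 10 genes known to follow the clock in several mouse tissues, 2 fell and 1 rose with regorafenib against vehicle, where 6.32% of all genes passed, with a median log2 change of 0.06. Usp2, a deubiquitinating enzyme, stood at 74.5, 71.6, 70.3 and 75.0 CPM with regorafenib, against 101, 100.0, 113 and 113 CPM with vehicle, a log2 change of -0.55 ± 0.07 (edgeR adjusted p = 0.000828). Lonrf3 fell by a log2 change of -0.75 ± 0.22 (adjusted p = 0.0481), with groups that overlapped, and Wee1, a kinase that holds back mitosis, rose by 0.40 ± 0.10 (adjusted p = 0.0267). The Lonrf3 call was lost with no filter (0.053), in limma (0.0531), with the replicate number as a block (0.0507), with the muscle and keratinocyte covariates (0.255 and 0.796) and without 13 of the 19 libraries, each left out in turn. The Wee1 call was lost with the muscle and keratinocyte covariates (0.153 and 0.688) and without regorafenib 2 or 4 or vehicle 3 or 4 (adjusted p up to 0.101). Against vehicle Wee1 was estimated as high with the combination (0.45 ± 0.10, edgeR adjusted p = 0.112) and with anti-CD40 (0.46 ± 0.11, adjusted p = 0.521). With anti-PD1 its change was 0.10 ± 0.11 (adjusted p = 0.818). None of the 10 passed in edgeR with the other 3 treatments against vehicle, where 2 (anti-PD1), 3 (combination) and 2 (anti-CD40) had an unadjusted p under 0.05, against 9.32%, 10.8% and 6.06% of all genes. DESeq2 called 2 with the combination and limma none. Set against regorafenib, the combination gave 1 call of the 10 in edgeR, where 10.5% of all genes passed, 3 in DESeq2 and 4 in limma. There 5 of the 10 had an unadjusted p under 0.05 in edgeR, against 28.1% of all genes. With the combination against regorafenib Usp2 rose, by a log2 change of 0.29 ± 0.07 (adjusted p = 0.014), which did not pass with the muscle covariate (0.25, adjusted p = 0.229) or the keratinocyte covariate (0.22, adjusted p = 0.336). Usp2 and Tef thus followed the same order in these 3 groups, lowest with regorafenib, and Usp2 with the keratinocyte covariate did not pass either (adjusted p = 0.22 with regorafenib).

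Glucocorticoid hormones and acute stimuli are known to induce Per1, and genes of both responses were read beside the clock genes. Of 10 glucocorticoid-response genes none passed in edgeR in the 4 comparisons with vehicle. Under an unadjusted p of 0.05 stood 5 for regorafenib, 2 for anti-PD1, 3 for the combination and 2 for anti-CD40, against 24.5%, 9.32%, 10.8% and 6.06% of all genes, and with regorafenib DESeq2 called 3 and limma 1, while with the combination DESeq2 called 1. With the combination against regorafenib Klf9, a transcription factor, rose (log2 change 0.59 ± 0.16, edgeR adjusted p = 0.0291) and Mt2, a metallothionein, fell (-0.39 ± 0.07, adjusted p = 0.00726), where 10.5% of all genes passed. In this comparison 7 of the 10 had an unadjusted p under 0.05 in edgeR, against 28.1% of all genes. DESeq2 called 3 of the 10 there and limma 6. Neither Klf9 nor Mt2 passed with the muscle and keratinocyte covariates. The log2 changes were then 0.24 and 0.21 for Klf9 (adjusted p = 0.489 and 0.605) and -0.36 and -0.34 for Mt2 (0.137 and 0.217). Klf9 was also lost with no filter (0.071) and without any 1 of regorafenib 1, 3 or 4 or combination 1 or 3. Of 12 immediate early genes, Dusp1, a phosphatase of MAP kinases, fell with the combination against vehicle, at 51.4 CPM ± 2.73 (n = 5) and 87.6 ± 8.35 (n = 4), a log2 change of -0.77 ± 0.11 (adjusted p = 0.0138), where 0.0237% of all genes passed. This call was lost without combination 2 or vehicle 1 (adjusted p up to 0.0681). With anti-CD40 Dusp1 averaged 54.5 CPM ± 6.00, below every vehicle library, a log2 change of -0.68 ± 0.13 (edgeR adjusted p = 0.185). The Dusp1 change was -0.29 ± 0.12 with regorafenib (0.138) and -0.04 ± 0.13 with anti-PD1 (0.945). An unadjusted p under 0.05 against vehicle was held by 5 of the 12 (regorafenib), 4 (anti-PD1), 5 (combination) and 4 (anti-CD40). The shares of all genes were 24.5%, 9.32%, 10.8% and 6.06%. In the same order, DESeq2 called 0, 0, 2 and 1 of the 12, and limma 2, 0, 1 and 1. Set against anti-PD1, the combination gave 0 calls of the 12 in edgeR, where 0.00591% of all genes passed, 5 in DESeq2 and 1 in limma. There 6 of the 12 had an unadjusted p under 0.05 in edgeR, against 9.94% of all genes. Against regorafenib 4 of the 12 fell with the combination, where 10.5% of all genes passed, among them Ier2 (-0.41 ± 0.09, adjusted p = 0.0116) and Dusp1 (-0.48 ± 0.11, adjusted p = 0.0147); neither of these passed with the muscle covariate (0.279 and 0.193) or the keratinocyte covariate (0.331 and 0.217). Over the 5 groups 6 of the 12 passed, where 4.49% of all genes did, among them Dusp1 (adjusted p = 0.00531) and Jun (0.0263). The Jun call was lost with the replicate number as a block (0.0591), with the muscle and keratinocyte covariates (0.0724 and 0.112) and without regorafenib 1 or 4. The part of these genes in the clock gene levels was not tested.

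Among 13180 genes with a mean of at least 1 CPM, and other than the 10 clock genes, those whose log2 CPM followed Dbp most closely over the 19 libraries were Bhlhe41 (r = 0.78), Tapbp (0.74), Sdk1 (0.71), Mex3a (0.70) and Kremen2 (0.70). Those that ran most against Dbp were Nfil3 (r = -0.79), Fbxo9 (-0.66) and Skint3 (-0.65). The closest to Arntl among them were Pdk4 (r = 0.88), Ppp1r3c (0.86), Prg4 (0.85) and St3gal5 (0.85). These 4 genes had their lowest level in anti-CD40 3, the library with the least Arntl; Pdk4 stood at 1350 CPM there, with a mean of 2700 CPM over all libraries. These are the ends of a ranking over libraries that share treatment, tissue content and 1 extreme library, and carry no test.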

How the data were processed

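The 19 libraries of oral tumour RNA from mice given 4NQO fell into 5 treatment groups by their treatment labels. The AllPrep kit was used for RNA and the TruSeq Stranded mRNA kit for the libraries, per the labels' protocols. Reads were processed with cutadapt 2.4 and STAR 2.7.2a on GRCm38, per the submitters' processing notes. How reads were counted, with which strand setting and annotation release, is not given in the sources used here. The authors deposited whole-number counts per gene, not normalized, and columns were tied to samples through their names. Symbols, coordinates and exon lengths came from GENCODE M21 on GRCm38 (55227 of 55487 IDs matched without the version). The 10 genes, the lists and the tests were chosen with earlier results of these data known.

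The filter on low counts, filterByExpr by group, kept 16909 genes with 99.92% of the counts. After TMM scaling, edgeR 4.0.16 in R 4.3.3 fitted 1 mean per group over all 19 libraries (robust quasi-likelihood, 14 residual degrees of freedom). The 8 tests set each treatment against vehicle and the combination against each of its agents, and added the interaction and any difference between the 5 groups. P-values were two-sided and adjusted by Benjamini and Hochberg over the 16909 genes, with a threshold of 0.05. The SE follows from F, as the size of the log2 change over its root. Log2 CPM used a prior count of 2. Levels per kilobase divide CPM by the summed exon length. Permutation tests drew 1e+05 resamples. They shuffled values freely over all 19 libraries, also after group means were removed. Their p-values with group means removed take no account of that removal and may be too small.

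All 10 clock genes were named in every comparison. Of the 18 other clock genes, Cry1, Cry2, Ciart, Hlf and Nfil3 were always named, and up to 5 with the smallest p among those called. Of the output, glucocorticoid and immediate early lists up to 3 called genes each were named by smallest p. Like patterns were ranked by Pearson's r. A gene that these rules take is not reported here.

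As alternatives, DESeq2 1.42.0 and limma 3.58.1 with sample weights were run, as were RLE scaling, no filter, the replicate number as a block, 3 marker covariates, only the groups compared, another prior count and leaving out each library. Each marker covariate was the mean log2 CPM of the tested markers of its list, centred over the libraries. A non-robust fit, and the relations and balance without single libraries, were added after the data were seen. Every pair of libraries differed beyond sampling noise (lowest chi-square per degree of freedom, 11.8). The script was tested on simulated counts with 200 changed genes. Figures used matplotlib 3.10.9 in Python 3.11.15.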

Additional observations from a re-analysis of the deposited data

How the results depend on the processing

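Replicate numbers were those of the sample titles, and the column names number some vehicle and regorafenib libraries otherwise. By title number no pairing of the samples showed. Deviations from group means of the 33 same-numbered pairs correlated at -0.45 to 0.54 (median 0.03), and 15 pairs were over 0.1. Pairing by the column numbers was not tested. With the replicate number as a block, 1 clock gene in place of 2 passed over the 5 groups (Tef; Nr1d2 had an adjusted p of 0.0515), and 210 genes in place of 760 passed in all; no other count over the 10 genes changed. The number of the 10 genes called moved as follows. With regorafenib against vehicle it was 0 with the keratinocyte covariate. With the combination against regorafenib it was 0 with the muscle covariate (5 genes of the table called) and 0 with the keratinocyte covariate (7 genes called). In the interaction it was 2 in DESeq2 (584 genes of the table called). Over the 5 groups it was 6 in DESeq2 (2481 genes of the table called) and 1 with the muscle covariate (Dbp, in place of Tef and Nr1d2, with 41 genes called). It was 0 with the keratinocyte covariate (16 genes called), and from 0 to 3 when single libraries were left out. The cause was not tested.

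Several estimates changed sign, none of them called; most were near 0, but Dbp and Nr1d1 with anti-CD40 were 0.78 and 0.31. With regorafenib against vehicle, Arntl was 0.18 with the muscle covariate and 0.34 with the keratinocyte covariate, Npas2 was 0.03 and 0.13, and Clock was 0.02 with the keratinocyte covariate. Under limma with sample weights, the anti-PD1 log2 changes were 0.04 for Arntl, 0.02 for Per1, 0.01 for Per2, -0.04 for Per3 and 0.01 for Tef. The anti-CD40 changes under limma were 0 for Arntl, -0.06 for Per1, -0.01 for Per3, -0.02 for Nr1d1, -0.09 for Dbp and -0.05 for Tef. Per1 with anti-CD40 was -0.01 with RLE and with DESeq2, 0 with no filter, and -0.02 with the muscle covariate and with only the 2 groups compared. With the combination, Npas2 was -0.02 with the salivary gland covariate and Per1 was 0 with the keratinocyte covariate.

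When single libraries were left out, Arntl ran from -0.15 to 0.01 with regorafenib, -0.16 to 0.03 with anti-PD1 and -0.24 to 0.05 with anti-CD40. With anti-PD1, Per1 ran from -0.31 to 0.03, Per2 from -0.25 to 0.12, Per3 from -0.09 to 0.16 and Tef from -0.07 to 0.03. With the combination, Clock ran from 0 to 0.04 and Npas2 from -0.08 to 0.12. With anti-CD40, Per1 ran from -0.09 to 0.10, Dbp from -0.05 to 1.15 and Tef from -0.04 to 0.14. The r of Arntl with Per2 was -0.06 without anti-CD40 3 and -0.02 without combination 2. The balance of the activators and the other genes and the median SD stayed within 1 SD of their values with RLE and with a prior count of 0.5.

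Groups of 3 to 5 libraries bound every comparison, and Dbp, read with 50 to 301 counts, carries the widest error. Groups that did not overlap are a description, since the share of all genes without overlap was not taken in any comparison. The keratinocyte and muscle sums did not overlap between the regorafenib and vehicle libraries. The covariates were mean log2 levels of the same markers, and their overlap between these groups was not examined. None of 33 sets of group values held a library far from the rest by Dixon's criterion, which was not applied to the groups of 3, anti-CD40 among them.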
